A study of Mus musculus with 9 samples.

Results

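The transcripts described are 10 genes of transforming growth factor beta (TGF-β) signaling, chosen by name among the 16755 genes of the authors' deposited table, and all 10 were found there. They comprise 5 ligand genes (Tgfb1, Tgfb2, Tgfb3, Inhba and Inhbe), 3 receptor genes (Tgfbr1, Tgfbr2 and Tgfbr3) and 2 genes of negative feedback (Smad7 and Bambi). RNA-seq of mouse liver gave 3 groups with 3 samples each. Every mouse carried floxed Scd2, the gene of stearoyl CoA desaturase 2. Untreated Scd2f/f mice gave the control liver. Scd2f/f mice and Scd2f/f;Col1a1-Cre mice (Scd2f/f;CC) had received the liver carcinogen diethyl nitrosamine (DEN), 10 mg/kg at 2 weeks of age, and Western alcohol diet (WAD) from 6 weeks of age. The labels give 4 months of this diet, and the paper's methods give a longer time. The paper's text calls the tissue of both DEN and WAD groups tumor-adjacent liver (TAL), a name kept here, while the labels call every sample liver. By the paper's text, TAL can hold microscopic tumors. The labels give the strain as C57BL/6, the paper's methods name male mice on a C57BL/6J background, and the age of the control mice is not given in the sources used here. Cre is expressed from the Col1a1 promoter, which in this liver marks hepatic stellate cells (HSC) and portal fibroblasts, so other cells that express Scd2 should keep it. The questions behind the comparisons are what DEN and WAD changed in Scd2f/f liver and what the loss of Scd2 in Col1a1-expressing cells changed in TAL.

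TGF-β ligands are secreted in a latent form and held in the matrix by latent TGF-β binding proteins until integrins, proteases or thrombospondin release them. The active ligand binds a type II receptor (Tgfbr2), which phosphorylates a type I receptor (Tgfbr1), and this phosphorylates Smad2 and Smad3, which enter the nucleus with Smad4. Smad7 is induced by the signal and blocks the type I receptor, and Bambi is a decoy receptor that lacks a kinase domain. In liver the pathway is known as a main driver of HSC activation and matrix production. Activins, the dimers of inhibin beta subunits (Inhba, Inhbe), signal to the same Smads through their own receptors.

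Values are the authors' means of normalized read counts, 1 per group and gene. No value of a single mouse was analysed, so the spread between mice is unknown, no test was run, and every difference below is a description. A gene was counted as higher or lower at a ratio of means of at least 2-fold, a limit chosen here. The depth of each sample is unknown. The hepatocyte marker Alb had means of 21300 in control liver and, in TAL, 20900 in Scd2f/f and 22700 in Scd2f/f;CC mice, so the tissue expressed liver markers in every group. The 75th percentile of all means was 15.4 to 15.5 in every group. The paper's methods scale counts to the upper quartile, so this closeness is no check of the groups. Scd2 itself had a mean of 2.46 in control liver and, in TAL, 6.47 in Scd2f/f and 1.87 in Scd2f/f;CC mice, where cells without Cre contribute to the value. In whole liver, fewer cells of a type and less RNA per cell cannot be told apart.

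Sequences before the start sites are shown for the 3 ligand genes that had an entry in the promoter table and were at least 2-fold apart between groups, Tgfb2 between the TAL groups, and Tgfb1 and Inhbe between control liver and Scd2f/f TAL. Each is the 250 bases before the start site on the gene's strand, from RefSeq on GRCm38.p6. Tgfb2 is at chr1:186705990-186706239 on the minus strand, Tgfb1 at chr7:25686752-25687001 on the plus strand and Inhbe at chr10:127351849-127352098 on the minus strand. The start site used for Inhbe lies inside the span that the authors' table gives the gene. Capitals mark matches to the motifs searched.
Tgfb2: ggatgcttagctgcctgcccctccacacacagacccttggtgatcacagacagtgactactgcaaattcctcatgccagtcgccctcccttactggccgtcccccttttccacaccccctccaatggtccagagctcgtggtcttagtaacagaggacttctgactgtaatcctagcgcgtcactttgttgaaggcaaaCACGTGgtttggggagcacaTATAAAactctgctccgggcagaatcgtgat
Tgfb1: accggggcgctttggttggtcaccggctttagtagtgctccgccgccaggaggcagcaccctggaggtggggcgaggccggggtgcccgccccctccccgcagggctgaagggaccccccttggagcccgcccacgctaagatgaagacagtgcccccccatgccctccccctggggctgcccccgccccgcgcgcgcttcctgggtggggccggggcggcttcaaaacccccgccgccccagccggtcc
Inhbe: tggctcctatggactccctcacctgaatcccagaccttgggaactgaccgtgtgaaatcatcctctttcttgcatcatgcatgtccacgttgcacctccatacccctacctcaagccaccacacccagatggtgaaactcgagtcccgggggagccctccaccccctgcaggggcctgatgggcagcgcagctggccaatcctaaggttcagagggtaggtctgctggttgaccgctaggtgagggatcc

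The motifs searched on both strands were the cAMP response element TGACGTCA, the AP-1 site TGANTCA, the Smad palindrome GTCTAGAC, the TATA box TATAAA and the E-box CACGTG. In these 250 bases, Tgfb2 held an E-box whose first base lies at position -51 and a TATA box whose first base lies at position -31, counted back from the start site. Tgfb1 and Inhbe held no match. Of 32851 RefSeq promoter windows, 6.02% held the E-box, 12.4% the TATA box, 6.75% the AP-1 site, 1.55% the cAMP response element and 0.167% the Smad palindrome. Of the 10 genes, 6 had an entry in the promoter table, and the E-box was found in Tgfb2 alone among them, while Inhba also held a TATA box, with its first base at position -91. The GC content was 53.6% before Tgfb2, 58.8% before Inhbe and 75.2% before Tgfb1, against a median of 52.4% over all windows. A match is a match of letters, and no binding was measured.

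After DEN and WAD, Tgfb1 and Inhbe were at least 2-fold higher in Scd2f/f TAL than in control liver, and none of the 10 genes was 2-fold lower. By this rule 9.37% of all genes were higher and 4.69% lower, and of the genes whose average over the groups reached 1, 6.4% were higher. The median log2 ratio of the 10 genes was 0.06, beside 0.05 for all genes. Tgfb1, the TGF-β isoform known as the main form in injured liver, lies on chromosome 7 from 25687002 to 25705078 (mm10). Its authors' mean was 3.14 in control liver and, in TAL, 7.53 in Scd2f/f and 5.61 in Scd2f/f;CC mice. Scd2f/f TAL was thus the highest and control liver the lowest, with a ratio of 2.40, and 93.3% of all genes had a lower ratio. Inhbe, which encodes the activin beta E subunit and is known as a hepatocyte product, lies on chromosome 10 from 127348857 to 127354412. Its authors' mean was 22.1 in control liver and, in TAL, 46.0 in Scd2f/f and 45.1 in Scd2f/f;CC mice. Both TAL groups thus lay close together, at 2.08 and 2.04 times control liver. Inhbc, the gene of the related beta C subunit, lies 1910 bases from Inhbe on the same strand and had means of 18.2, 34.8 and 34.8 in the same order of groups.

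The other ligands differed less between control liver and Scd2f/f TAL. Inhba, the gene of the activin A subunit, on chromosome 13 from 16011851 to 16031622, had authors' means of 7.73 in control liver and, in TAL, 6.41 in Scd2f/f and 7.58 in Scd2f/f;CC mice, the lowest being Scd2f/f TAL. Tgfb2 had means of 0.570, 0.804 and 0.269 in the same order, and Tgfb3 means of 1.10, 1.01 and 0.339. For both genes the lowest mean was that of Scd2f/f;CC TAL.

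**Figure D1:**
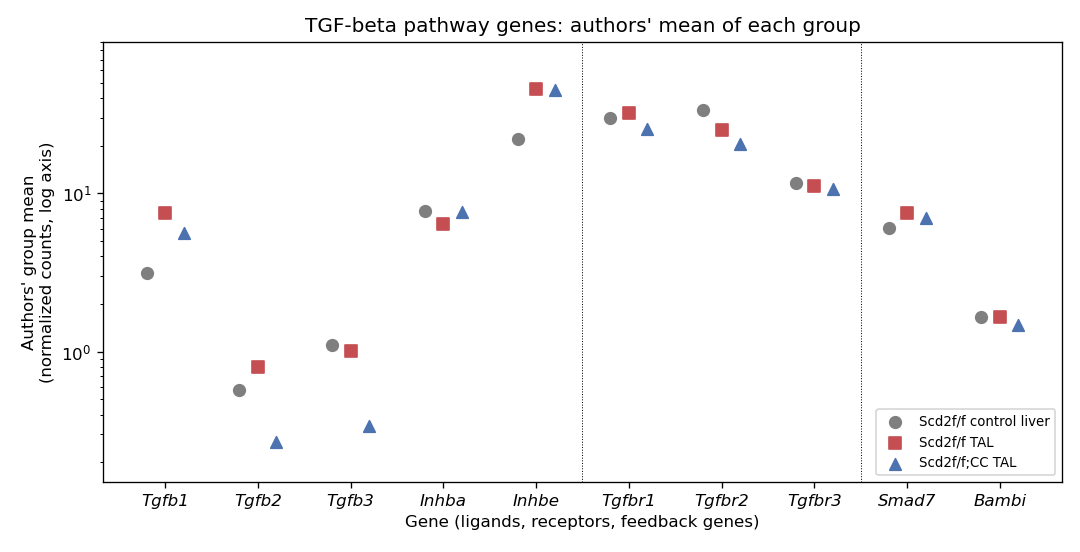
Authors' mean of normalized counts (log axis) for each of the 10 genes in Scd2f/f control liver (circles), Scd2f/f TAL (squares) and Scd2f/f;CC TAL (triangles), with dotted lines between ligands, receptors and feedback genes. Tgfb2 and Tgfb3 sit below 0.4 in Scd2f/f;CC TAL and at or above 0.57 in the other groups, while Tgfb1 and Inhbe are lowest in control liver. No error bars are drawn because 1 mean per group was analysed.

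Of the 10 genes, the ligand genes Tgfb2 and Tgfb3 were lower in Scd2f/f;CC TAL by nearly the same factor when set against TAL of mice without Cre, and no other gene passed 2-fold. Tgfb2, on chromosome 1 from 186622792 to 186705990, had a mean in TAL that was 2.99 times as high without Cre as with it (log2 ratio -1.58). Tgfb3, on chromosome 12 from 86056745 to 86079042, had a mean 2.98 times as high (log2 ratio -1.57). Only 1.31% and 1.33% of all genes had lower ratios. By the 2-fold rule 4.07% of all genes were lower and 1.82% higher, so 2 lower genes of 10 compare with that share. Means of both genes were low, however. With an average of 0.548 and 0.816 over the groups, 21.7% and 26.9% of all genes had lower averages, and among genes with an average under 1 the share at least 2-fold lower was 10.1%. Adding a pseudocount of 1 to the means gave log2 ratios of -0.51 for Tgfb2 and -0.59 for Tgfb3, and neither passed 2-fold. Both genes were left out when an average of 1 was asked for, and 0 of the other 8 genes were lower.

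The last 5149 bases of Tgfb3 overlap Ttll5, a tubulin glutamylase gene on the other strand. The library kit named in the labels does not mark strand, so reads in the overlap could not be told apart by strand. Ttll5 had authors' means of 4.84 in control liver and, in TAL, 4.64 in Scd2f/f and 4.83 in Scd2f/f;CC mice and was thus nearly level between the groups. No gene of the table overlaps Tgfb2.

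The remaining genes had ratios between the TAL groups, with Cre over without, of 0.745 to 1.18. Tgfb1 was at 0.745, so that its mean in Scd2f/f;CC TAL was 1.79 times control liver. Inhbe was at 0.980 and Inhba at 1.18, the highest of the 10. In all, 9 of 10 ratios were below 1, and the median log2 ratio was -0.23, beside 0.00 for all genes. Of all genes, 8308 were below 1 and 8298 above.

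No receptor passed 2-fold in any comparison. Tgfbr1, the type I receptor, lies on chromosome 4 from 47353222 to 47414932, Tgfbr2 on chromosome 9 from 116084293 to 116175361 and Tgfbr3 on chromosome 5 from 107106570 to 107289630. Tgfbr1 had authors' means of 29.9 in control liver and, in TAL, 32.3 in Scd2f/f and 25.5 in Scd2f/f;CC mice. Its ratio between the TAL groups was 0.789, and 17.5% of all genes had a lower ratio. Tgfbr2, the type II receptor, had means of 33.9, 25.1 and 20.6 in the same order, which makes it the receptor with the widest range. Scd2f/f;CC TAL held 0.608 of the control mean of Tgfbr2, and 8.22% of all genes had a lower ratio. Tgfbr3, the co-receptor betaglycan, which presents TGF-β2 to the type II receptor, had means of 11.7, 11.1 and 10.7, the narrowest range of the 3 receptors. The ratio of Tgfbr1 to Tgfbr2 on the scale of means per kb was 1.11 in control liver and, in TAL, 1.61 in Scd2f/f and 1.55 in Scd2f/f;CC mice.

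Smad7 and Bambi, the feedback genes, did not pass 2-fold in any comparison. Smad7 had authors' means of 6.01 in control liver and, in TAL, 7.48 in Scd2f/f and 6.97 in Scd2f/f;CC mice. Bambi had means of 1.65, 1.66 and 1.48. Bambi was thus level between control liver and Scd2f/f TAL, with a ratio of 1.01, and Smad7 was 1.24 times control liver in Scd2f/f TAL. With no spread between mice, the size of difference that these means could show is unknown.

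**Figure D2:**
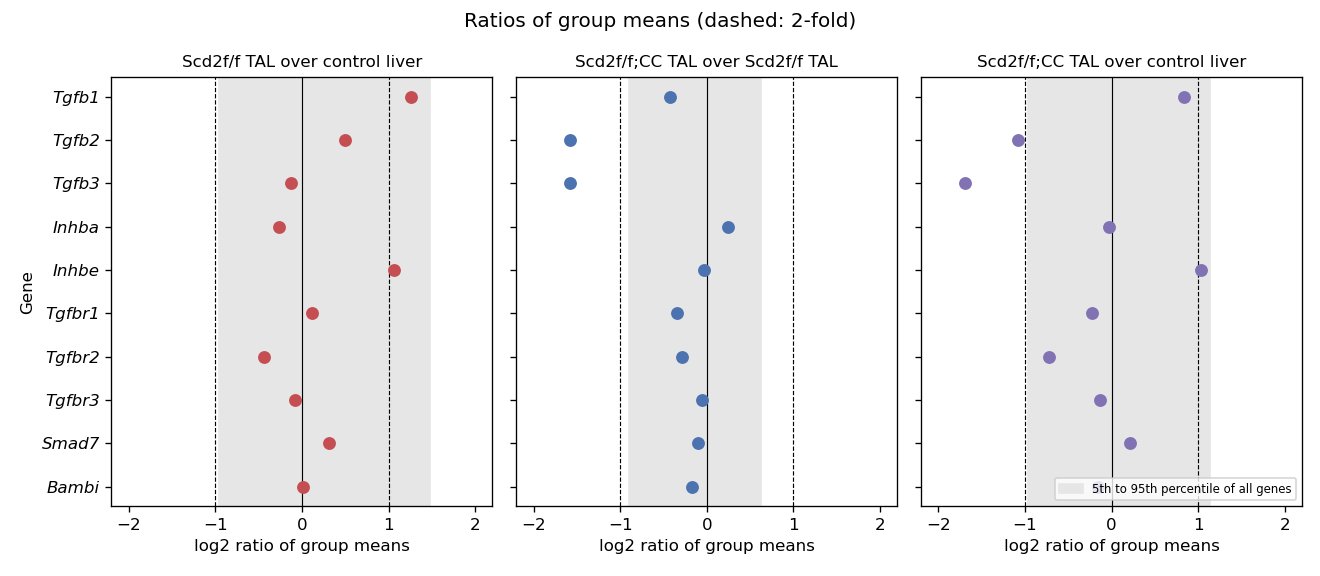
Log2 ratio of group means for each of the 10 genes in 3 comparisons, with dashed lines at 2-fold and a grey band from the 5th to the 95th percentile of all 16755 genes. Tgfb2 and Tgfb3 lie at -1.58 and -1.57 in the middle panel, left of the 5th percentile at -0.90. The comparisons share groups, so the panels are not independent.

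Against control liver, Scd2f/f;CC TAL had Inhbe at least 2-fold higher and Tgfb2 and Tgfb3 at least 2-fold lower. All genes gave 6.41% higher and 4.64% lower, and the shares were 4.51% higher of genes whose average reached 1 and 9.58% lower of genes under it. The ratio was 0.472 for Tgfb2 and 0.308 for Tgfb3, so both lay below their untreated level. With a pseudocount of 0.1, Tgfb2 no longer passed 2-fold (log2 ratio -0.86), and with a pseudocount of 1 neither Tgfb2 (-0.31), Tgfb3 (-0.65) nor Inhbe (0.997) passed. Both lower genes were again left out when an average of 1 was asked for. Inhbe, at a log2 ratio of 1.03, no longer passed once ratios were centred on the median ratio (0.99). At a limit of 1.5-fold, Tgfb1 was also higher and Tgfbr2 also lower, where 14.9% of all genes were higher and 10.9% lower. In the other comparisons this limit gave the same counts of the 10 genes as 2-fold, while the shares of all genes grew to 17.2% higher and 11.3% lower in Scd2f/f TAL against control liver, and to 5.72% higher and 9.82% lower between the TAL groups.

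Levels of different genes were set side by side only as means per kb of exon, with exons of all annotated transcripts merged. Averaged over the groups, Inhbe was highest at 7.09, followed by Tgfbr1 at 4.47 and Tgfbr2 at 3.24. Tgfbr3 at 1.71, Smad7 at 1.51, Inhba at 1.13 and Tgfb1 at 1.08 formed a middle range, and Bambi at 0.315, Tgfb3 at 0.241 and Tgfb2 at 0.0946 were the lowest. In control liver alone, Tgfbr1 at 4.58 was above Inhbe at 4.15 and Tgfbr2 at 4.14. Which neighbours in this order differ beyond the spread between mice is unknown. The order also rests on the length used. With the longest transcript as the length, 4 of the 10 genes changed place, and Tgfb1 moved from place 7 to place 4, at 2.11 per kb.

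Per kb, Tgfb1 made up 59.5% of the sum of the 3 TGF-β ligands in control liver and, in TAL, 77.3% in Scd2f/f and 88.4% in Scd2f/f;CC mice. The share of Tgfb3 was 31.1%, 15.5% and 7.96% in the same order, and that of Tgfb2 was 9.41%, 7.19% and 3.69%. The sum itself was 1.05, 1.93 and 1.26 per kb. The sum in Scd2f/f;CC TAL thus lay nearer to control liver, while its make-up lay farther from it. With the longest transcript as the length, the share of Tgfb1 was 73.7%, 86.5% and 93.5%, which keeps the order of the groups.

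**Figure D3:**
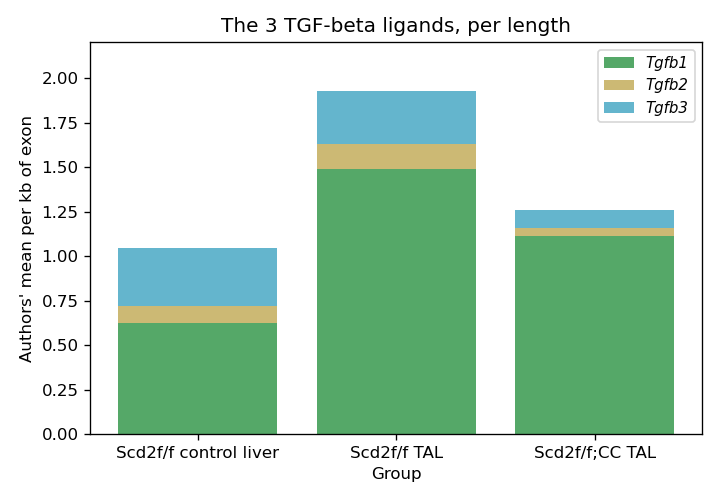
Authors' means of Tgfb1, Tgfb2 and Tgfb3 per kb of exon, stacked for each group. The stack is 1.05 high in control liver and, in TAL, 1.93 high in Scd2f/f and 1.26 high in Scd2f/f;CC mice, and the parts for Tgfb2 and Tgfb3 are smallest in Scd2f/f;CC TAL.

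Genes whose pattern over the groups was most like that of a member were sought among the 11784 genes whose average over the groups reached 1, by the distance between log2 means centred on each gene's average. With 3 points per gene, likeness is a weak description. Nearest to Tgfb2, the member with the lowest ratio between the TAL groups, were Ccdc3 (distance 0.0532), Gm10252 (0.146) and Cxcl1 (0.156), and Ccdc3 alone lay within 0.1. Cxcl1, a neutrophil chemokine, had authors' means of 11.8 in control liver and, in TAL, 17.5 in Scd2f/f and 5.04 in Scd2f/f;CC mice. Nearest to Inhba, the gene with the highest ratio, were Nudt21, Khk and Pik3c2b, but 586 genes lay within 0.1 of it. For Tgfb3, looked up after its values had been seen, the nearest were Myc, with means of 6.84, 6.41 and 2.05, and Spp1, with means of 52.3, 45.1 and 14.8, and these were the 2 genes within 0.1. Myc is a growth-promoting transcription factor and Spp1, osteopontin, is a known product of cholangiocytes and macrophages.

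Of 123 other genes in lists of the pathway, 102 were matched in the table. Scd2f/f TAL had 23 of them higher and 2 lower than control liver by the 2-fold rule (22.5% and 1.96%), and between the TAL groups 1 was higher and 17 were lower in Scd2f/f;CC mice (0.98% and 16.7%). The share of all genes was 9.37% higher and 4.69% lower in the first of these comparisons, and 1.82% and 4.07% in the second. Of the 17 lower genes, 10 had an average over the groups of at least 1. Among all genes with an average under 1, the lower share between the TAL groups was 10.1%. Among the genes that hold or release latent TGF-β, 18 were matched, 4 were higher in Scd2f/f TAL than in control liver and 5 were lower in Scd2f/f;CC TAL than in Scd2f/f TAL. The latent TGF-β binding protein Ltbp3 had authors' means of 1.43 in control liver and, in TAL, 2.62 in Scd2f/f and 1.05 in Scd2f/f;CC mice. Thbs1, thrombospondin 1, which can release the ligand, had means of 3.63, 7.19 and 2.29, and the protease gene Mmp2 had means of 1.19, 3.06 and 1.07. All 3 genes were highest in Scd2f/f TAL and lowest in Scd2f/f;CC TAL. Nrros, which tethers latent TGF-β on myeloid cells, had means of 1.72, 4.52 and 3.44 and thus followed the order of Tgfb1. Itgav, the alpha subunit of the integrins that release the ligand, had means of 40.3, 48.2 and 44.6. The median log2 ratio of these latency and activation genes was 0.72 between Scd2f/f TAL and control liver and -0.33 between the TAL groups.

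Among other ligands of the superfamily, 17 were matched, 5 were higher in Scd2f/f TAL and 2 were lower in Scd2f/f;CC TAL. Gdf15, a stress-induced hormone, had authors' means of 2.56 in control liver and, in TAL, 13.1 in Scd2f/f and 8.13 in Scd2f/f;CC mice. Inhbb, the activin beta B subunit, had means of 0.946, 2.24 and 1.88, and Bmp7 means of 0.632, 1.33 and 1.74. Gdf10, also known as Bmp3b, had means of 3.76, 5.65 and 2.63 and was lower in Scd2f/f;CC TAL, with a ratio of 0.465. The 10 other receptors included Acvrl1, a type I receptor of endothelial cells, with means of 1.21, 3.17 and 2.40, and Acvr2b, an activin type II receptor, with means of 3.02, 0.954 and 1.77. These were the receptors past 2-fold, Acvrl1 higher and Acvr2b lower in Scd2f/f TAL than in control liver, and 0 of the 10 passed between the TAL groups. Of the 13 Smads and partners matched, Tgif1, a corepressor of Smads, was the gene past 2-fold, with means of 3.80, 7.63 and 7.69. Smad2 (8.65, 7.21 and 6.60), Smad3 (8.14, 8.01 and 6.83) and Smad4 (20.3, 22.8 and 21.8) stayed under 2-fold. Of 18 other inhibitors, Pmepa1, which binds Smad2 and Smad3, was higher in Scd2f/f TAL (0.970, 2.29 and 1.33), and Fstl1 and Fstl3, follistatin-like genes, were lower with Cre in TAL, Fstl1 with means of 3.28, 5.82 and 2.68 and a ratio of 0.460.

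The list of 25 matched TGF-β response genes had the largest median shifts of the pathway lists in the comparisons of Scd2f/f TAL with control liver and between the TAL groups. Its median log2 ratio was 0.99 between Scd2f/f TAL and control liver, with 11 genes higher and 1 lower, and -0.83 between the TAL groups, with 0 higher and 9 lower. The median between Scd2f/f;CC TAL and control liver was 0.15, below that of the other receptors (0.22) and of the bone morphogenetic protein (BMP) response genes (0.21). Loxl2, a collagen crosslinking enzyme, had authors' means of 2.40 in control liver and, in TAL, 5.32 in Scd2f/f and 2.98 in Scd2f/f;CC mice, and Col5a1, a collagen gene, had means of 4.52, 9.75 and 5.77. These genes were thus highest in Scd2f/f TAL. Cdkn1a, the gene of the cell cycle inhibitor p21, had means of 0.464, 4.33 and 1.80. In Scd2f/f;CC TAL all of these genes lay between the other groups. The fibrillar collagen genes were close to control liver in that group, with means of 4.69, 19.6 and 4.51 for Col1a1, 6.65, 21.7 and 6.93 for Col1a2, and 19.3, 58.6 and 21.6 for Col3a1. Tagln, a smooth muscle gene, went the other way after DEN and WAD, with means of 7.85, 3.79 and 1.75. Fn1, fibronectin, was highest in Scd2f/f;CC TAL (1000, 1280 and 1660) and is also a major hepatocyte product. Several of these genes, the collagens among them, were known from earlier results of these data to be lower in Scd2f/f;CC TAL, and they also mark myofibroblasts, so their direction is not independent evidence.

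**Figure D4:**
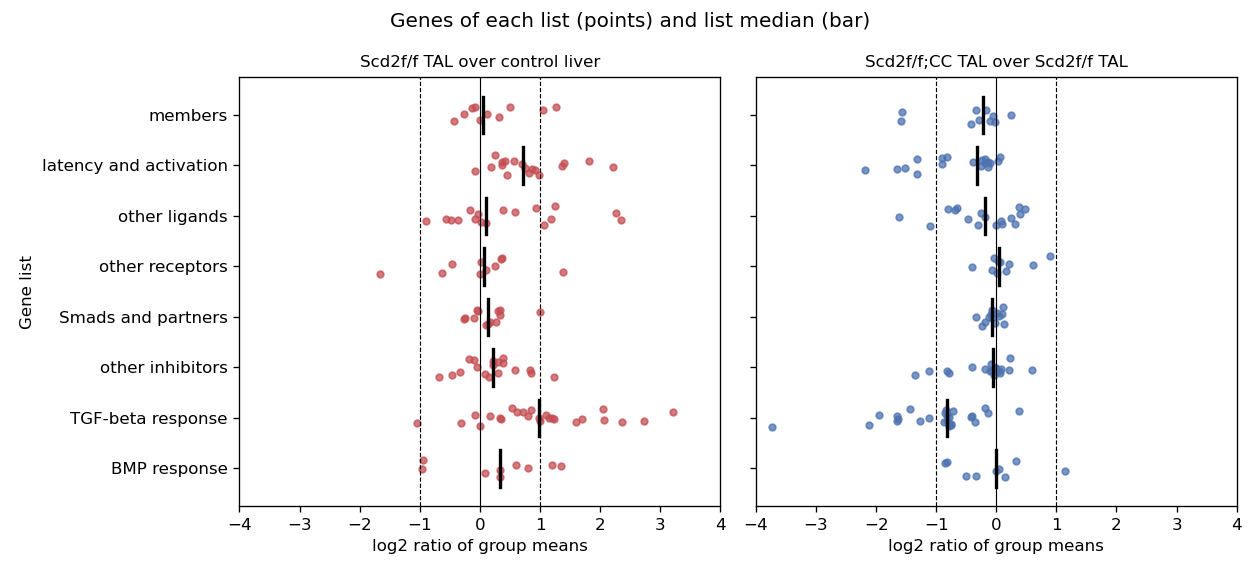
Log2 ratio of group means for the 10 genes and for 7 lists of other pathway genes, with a point for each gene, a bar at the list median and dashed lines at 2-fold. TGF-β response genes have their median at 0.99 in the left panel and at -0.83 in the right panel, while Smads and partners stay near 0 in both (0.13 and -0.06). Some genes are in more than 1 list, and both panels share the Scd2f/f TAL group.

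Markers of several cell types also differed between the groups. With the higher Tgfb1 of Scd2f/f TAL, all 10 macrophage markers were at least 2-fold higher than in control liver, and their summed mean was 107 in control liver and, in TAL, 408 in Scd2f/f and 335 in Scd2f/f;CC mice. T and B cell markers were higher for 7 of 10, with sums of 2.25, 6.46 and 4.43. By the same rule 9.37% of all genes were higher. The sum of hepatocyte markers was 36500, 33100 and 37300, with 0 of 10 higher and 1 lower, beside an Inhbe mean that was 2.08-fold higher. Myofibroblast and portal fibroblast markers were higher for 5 of 10, with sums of 49.7 in control liver and 133 in Scd2f/f TAL. Cholangiocyte markers were higher for 2 of 8, stellate cell markers for 1 of 10 and endothelial markers for 2 of 10. The part of any of these markers in the result for Tgfb1 was not tested.

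With the lower Tgfb2 and Tgfb3 of Scd2f/f;CC TAL, 6 of 8 matched cholangiocyte markers and 7 of 10 myofibroblast and portal fibroblast markers were at least 2-fold lower than in Scd2f/f TAL. Of all genes 4.07% were lower by this rule, and 10.1% of genes with an average under 1. Several of the lower markers had such averages, Krt19 (0.567) and Acta2 (0.953) among them. The summed mean of the cholangiocyte markers was 65.0 in control liver and, in TAL, 61.0 in Scd2f/f and 26.1 in Scd2f/f;CC mice. Spp1 carries most of this sum, and without it, a choice made after the values were seen, the other 7 markers summed to 12.7, 15.9 and 11.3 in the same order. Among these, the biliary surface marker Epcam had means of 1.97, 1.82 and 0.500, and the biliary keratin gene Krt19 had means of 0.746, 0.751 and 0.204, while Sox9 was not 2-fold lower with Cre, with a ratio between the TAL groups of 0.700. The sum of the myofibroblast and portal fibroblast markers was 49.7, 133 and 52.4, and without Col1a1, Col1a2 and Col3a1 it was 19.1, 33.0 and 19.4. Not all of its members had that order. Acta2, the smooth muscle actin gene of myofibroblasts, had means of 1.27, 1.20 and 0.388. Its ratio of Scd2f/f;CC TAL to control liver was 0.306, beside 0.308 for Tgfb3. Acta2 was the 1 of 10 markers of this list at least 2-fold lower in that comparison, where 5 of 8 matched cholangiocyte markers were lower. Of all genes 4.64% were lower by this rule, and 9.58% of genes with an average under 1. Fbln2, a portal fibroblast marker, had means of 1.27, 1.45 and 0.761. Stellate cell markers were at least 2-fold lower for 1 of 10, with sums of 222, 313 and 221. All 10 had ratios between the TAL groups below 1, with a median log2 ratio of -0.41. Endothelial markers were lower for 0 of 10, with sums of 132, 173 and 173, and macrophage markers for 0 of 10. T and B cell markers were lower for 3 of 10, namely Cd3e, Trac and Cd8a. No marker that was matched had a mean of 0 in any group. The part of these markers in the lower Tgfb2 and Tgfb3 was not tested.

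**Figure D5:**
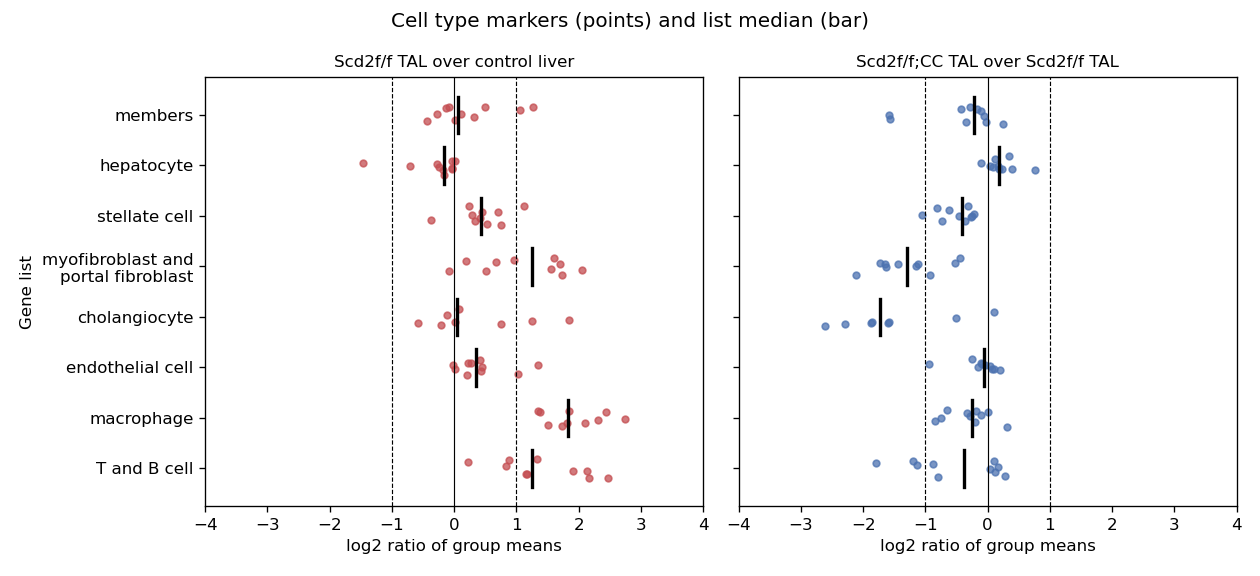
Log2 ratio of group means for the 10 genes and for markers of 7 kinds of liver cells, with a point for each gene, a bar at the list median and dashed lines at 2-fold. Macrophage markers have their median at 1.83 in the left panel, and cholangiocyte markers (-1.74) and myofibroblast and portal fibroblast markers (-1.29) have the lowest medians in the right panel.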

How the data were processed

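Polyadenylated RNA was sequenced by the authors from liver of 9 mouse samples, 3 in each of 3 groups. The submitters' processing notes name STAR 2.6.1, Partek 6 and mm10. The paper's methods describe gene-level counts on Gencode M3 by Partek's expectation-maximization step, scaling to the upper quartile and Gene Specific Analysis. The deposited signal values are least-squares group means of these normalized counts, given by the authors with 3 significant digits. The table's other columns hold the authors' own p-values, FDR, ratios and fold changes, which were not used. Its gene coordinates overlapped the gene of the same name in GENCODE M21 (GRCm38) for 99.98% of 16171 matched symbols, and the stop of all 10 genes lies 1 base past the annotated end. The protocol text of the untreated samples also names DEN and WAD. Their treatment label, untreated, was followed.

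Ratios of means were taken without a pseudocount and called at 2-fold. Lengths came from GENCODE M21, and normalized means were higher for longer genes (median 4.30 in the shortest and 11.1 in the longest quintile of 13338 protein-coding genes), so levels were divided by length. The genes named are the 10 members, Scd2, genes of the pathway lists past 2-fold with a mean of at least 1, and the 3 nearest patterns of the members with the lowest and highest ratio between the TAL groups. Of these, 1 gene is not reported here. Other genes (Inhbc, Ttll5, Itgav, Smad2, Smad3, Smad4, Fstl3, Fn1, Epcam, Krt19, Sox9, Acta2, Fbln2, Cd3e, Trac, Cd8a, Hamp, Bmp6, Id1, Smad6, Myc and Spp1) were chosen after their values were seen. The members and lists were chosen with earlier results of these data known. The counting of calls was checked on simulated group means with planted changes past the limit. That check modelled no spread between mice and does not bear on whether any call above is reliable. Alternatives were pseudocounts of 0.1 and 1, centring on the median ratio of genes whose mean reached 1, a minimum mean of 1, a 1.5-fold limit and another gene length. Scripts ran in Python 3.11.15 (NumPy 2.4.6, pandas 2.3.3, Matplotlib 3.10.9).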

Additional observations from a re-analysis of the deposited data

How the results depend on the processing

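Leaving out samples could not be tried with 1 mean per group. No paired analysis was possible because only group means were analysed. The low means of Tgfb2 and Tgfb3 set the limits. Counts below are of genes at least 2-fold apart unless another limit is named. Shares of all genes were not computed for the pseudocounts or for centring. Counts under those settings therefore cannot be read against all genes. Between the TAL groups 682 of 16755 genes were lower, 501 of them among the 4971 with an average under 1. Against control liver 777 were lower in Scd2f/f;CC TAL, 476 of them under that average. The rest fall among the 11784 genes whose average reached 1. With a pseudocount of 0.1, 1 of the 10 genes and 3 pathway genes were below control liver in Scd2f/f;CC TAL. With a pseudocount of 1, the 10 genes counted 0 lower between the TAL groups, and in Scd2f/f;CC TAL 0 higher and 0 lower than in control liver. The pathway genes then counted 8 higher and 1 lower in Scd2f/f TAL against control liver, 0 higher and 4 lower between the TAL groups, and 1 higher and 1 lower when TAL of Scd2f/f;CC mice was set against control liver. Centring left 0 of the 10 genes higher in Scd2f/f;CC TAL than in control liver. Where an average of 1 was asked for, 0 of the 10 genes were lower between the TAL groups or against control liver, and 10 and 2 pathway genes were. At 1.5-fold, 2 of the 10 genes were higher in Scd2f/f;CC TAL than in control liver, and the pathway genes counted 39 higher and 7 lower, 4 higher and 33 lower, and 15 higher and 10 lower in the comparisons in the order above. The length used moved 4 of the 10 genes in the order of levels. No ratio of the 10 genes past 2-fold changed sign under any of these settings. The cause of these changes was not tested.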

Other observations

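Hepcidin and the bone morphogenetic protein (BMP) branch were set beside the TGF-β genes, with the genes picked after their values had been seen. Hamp, which encodes the iron hormone hepcidin and is a known target of Bmp6 in hepatocytes, had authors' means of 109 in control liver, 56.2 in Scd2f/f TAL and, with Cre, 62.0 in TAL of Scd2f/f;CC mice. Hamp2 had means of 2.51, 1.31 and 2.90, and it was the BMP response gene at least 2-fold higher in Scd2f/f;CC TAL than in Scd2f/f TAL. Bmp6 had means of 1.33, 1.03 and 0.905. Id1 and Id3, targets shared by BMP and TGF-β signals, had means of 1.32, 2.29 and 1.30, and of 7.89, 18.1 and 9.99. The BMP targets therefore did not move together. Over the 9 matched BMP response genes, the median log2 ratio was 0.33 between Scd2f/f TAL and control liver and 0.00 between the TAL groups. Smad6, the inhibitory Smad of the BMP branch, had means of 2.32, 2.47 and 2.47.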
